A study of Mus musculus with 6 samples.

Results

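The 35 genes described here encode components of the PI3K, AKT, mTOR and FOXO pathway, out of 23412 genes in the deposited count table. They were chosen by symbol from a fixed list, all 35 were found in the table, and all 35 passed the filter on low counts that left 18767 genes for testing. They were divided by role into a kinase arm of 21 genes (the subunits of PI3K, the kinases below it and the mTOR complexes), 9 brakes (phosphatases, inhibitors and translation repressors) and a FOXO arm of 5 genes (the FOXO factors with Irs2 and Trib2). RNA was sequenced from splenic germinal centre B cells sorted as B220+, GL7+ and Fas+ on day 10 after mice received sheep red blood cells into the peritoneum. Control mice had the genotype Cg1-cre(+/-), and DAF-TM mice had Cg1-cre(+/-);DAF-TM(fl/fl), with the cassette at the Rosa26 locus. Both groups thus carry Cre, which the Cg1 allele drives in B cells that transcribe the IgG1 constant region, and every DAF-TM value includes whatever the cassette itself adds. DAF is decay accelerating factor, a membrane protein that limits complement activation, encoded by Cd55. The table header spells the Cre genotype cg1-cre (+/fl) and gives the controls DAF-tg (+/+) as well. The labels do not give strain, age, sex or whether mice were pooled.

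PI3K phosphorylates a membrane lipid, and the product recruits PDK1 and AKT. AKT in turn releases mTORC1 from the TSC complex and keeps FOXO factors out of the nucleus. In germinal centres this axis is known for linking antigen and T cell help to growth and division, and FOXO1 is known as a factor of the dark zone, where B cells divide. PI3K delta is the isoform best known downstream of the B cell receptor, while PI3K gamma is best known downstream of G protein-coupled receptors, which include those for chemokines and complement fragments.

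The columns labelled DAF-TM replicate 2 and replicate 3 are identical in 23412 of 23412 rows. They differed by less than sampling noise allows and entered as a single library, DAF-TM library 2. Every value below therefore rests on 3 control and 2 DAF-TM libraries, with 7257339 to 12783965 counts each. Nothing in the labels says that libraries came from separate mice, so part of the spread behind the p-values may be technical. That spread was mainly pooled over genes and is not each gene's own. Cd55 stood at 23.4 to 34.3 CPM (counts scaled to library size) in the control libraries, against 712 and 725 with DAF-TM, in the direction of the labels. The libraries differed in sex-linked RNA: Xist ran from 2.63 to 758 CPM among the controls and was 296 and 719 in DAF-TM libraries 1 and 2, and 4 Y-linked genes together took 0.106 to 707 CPM among the controls, 289 in DAF-TM library 1 and 0 in DAF-TM library 2. DAF-TM library 1 thus held RNA of both sexes, unlike DAF-TM library 2. Control library 1 (Xist 758, Y-linked genes 0.106 CPM) differed in sex from control libraries 2 (2.63 and 707) and 3 (2.86 and 477). The spread between libraries thus includes differences between mice, though control libraries 2 and 3 could still share a source. Of 14 B cell and germinal centre markers 0 were called (2 had an unadjusted p under 0.05), and their summed level was 13550 to 16180 CPM in controls and 12520 and 13800 in DAF-TM libraries. Markers of natural killer cells did differ: 8 of 12 were called higher, and their sum was 38.1 to 59.0 CPM in controls and 152 and 91.7 in DAF-TM libraries 1 and 2.

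RNA of all 35 genes was found in both groups, at levels that spread widely. These are bulk libraries with RNA of other cell types in them, so a level cannot be assigned to the B cells alone, least of all for genes with few counts such as Foxo3 and Foxo4. CPM here are scaled by TMM factors, which correct for RNA composition, and for comparisons between genes they were divided by the length of each gene's merged exons in kilobases (GENCODE M21). Akt1 led with 102 ± 17.0 CPM per kilobase (SD, n = 5 libraries of both groups), and the PI3K subunit Pik3cd followed at 62.8 ± 9.81. The range of Akt1 over the 5 libraries did not overlap that of Pik3cd, nor did the range of Pik3cd overlap that of the next gene, Trib2, at 35.6 ± 2.58. From Trib2 down to Tsc1 the range of each gene overlapped that of its next neighbour, so their exact order is not fixed by these libraries. Foxo4 at 0.558 ± 0.185 and Foxo3 at 0.213 ± 0.0885 CPM per kilobase came last.

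**Figure D1:**
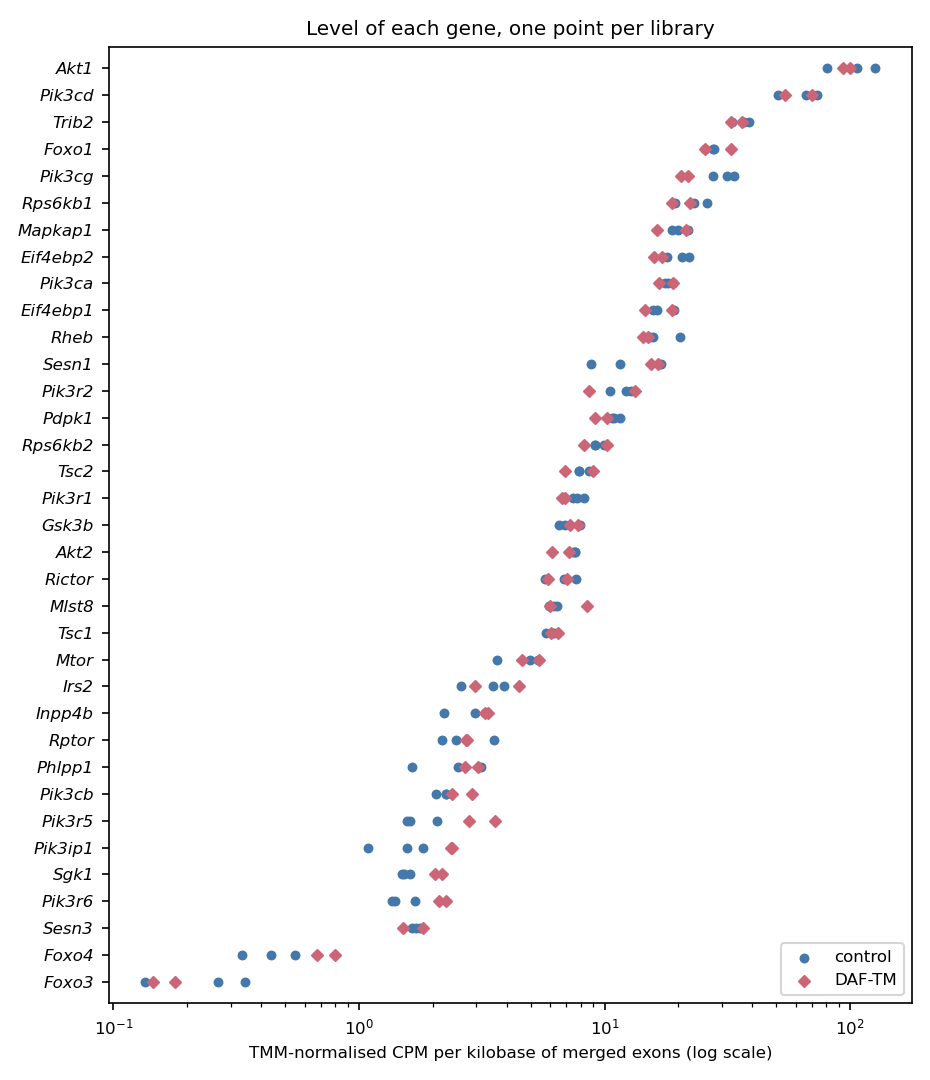
Level of each of the 35 genes on a log scale, in TMM-normalised CPM per kilobase of merged exons, with 1 point per library (3 control, 2 DAF-TM). Akt1 and Pik3cd stand highest, and Foxo4 and Foxo3 lowest, with control and DAF-TM points intermixed for most genes.

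Within families the isoforms stood at different levels. Among the 4 catalytic subunits of PI3K, Pik3cd (p110 delta, 62.8 ± 9.81 CPM per kilobase) stood above Pik3cg (p110 gamma, 27.0 ± 5.82), Pik3ca (p110 alpha, 18.1 ± 1.04) and Pik3cb (p110 beta, 2.37 ± 0.309), and no neighbouring ranges in this order overlapped (SD, n = 5). Among the regulatory subunits the order was Pik3r2 (p85 beta, 11.5 ± 1.90), Pik3r1 (p85 alpha, 7.43 ± 0.635), Pik3r5 (p101, 2.33 ± 0.853) and Pik3r6 (p84, 1.77 ± 0.412), where the last pair overlapped. Akt1 stood 14.2-fold above Akt2. Foxo1, at 28.0 ± 2.90 CPM per kilobase, stood 50.1-fold above Foxo4 and 131-fold above Foxo3. These levels depend on the transcript models used for the length, since the annotation behind the deposited counts is not known from the sources used here.

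No member was called different between DAF-TM and control cells. In edgeR's quasi-likelihood test with Benjamini-Hochberg adjustment over 18767 genes, 0 of the 35 passed an adjusted p of 0.05, where 0.41% of all genes tested did (0.373% higher, 0.0373% lower). DESeq2 and limma-voom also called 0. At an unadjusted p under 0.05 there were 4 members, which is 11.4% of the members against 5.74% of all genes. Of these 3 were higher (Pik3r5, Pik3ip1 and Sesn1), where 3.68% of all genes were, and 1 was lower (Pik3cg), where 2.06% were. In 12 of the 35, or 34.3%, the groups did not overlap, against 20.3% of all genes tested. In 6 of these DAF-TM was higher (17.1%, against 11.3% of all genes) and in 6 lower (17.1%, against 9.02%).

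The fit, with its spread mainly pooled over genes, bounded most members closely. For 24 of the 35 the 95% interval of the fold change lay within 1.5-fold in either direction, and for 29 within 2-fold. The other 6, Pik3r5, Pik3r6, Sgk1, Pik3ip1, Foxo4 and Foxo3, were the 6 members of lowest mean CPM. In simulated data of the same size (18767 genes, 2 against 3 libraries), 14% of genes changed 1.5-fold and 38% of those changed 2-fold were called. The changed genes were drawn from all genes tested, whose median SE was 0.298, against 0.172 for the members. Changes of that size would thus often be missed over the whole table, and the share missed among the members was not simulated.

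**Figure D2:**
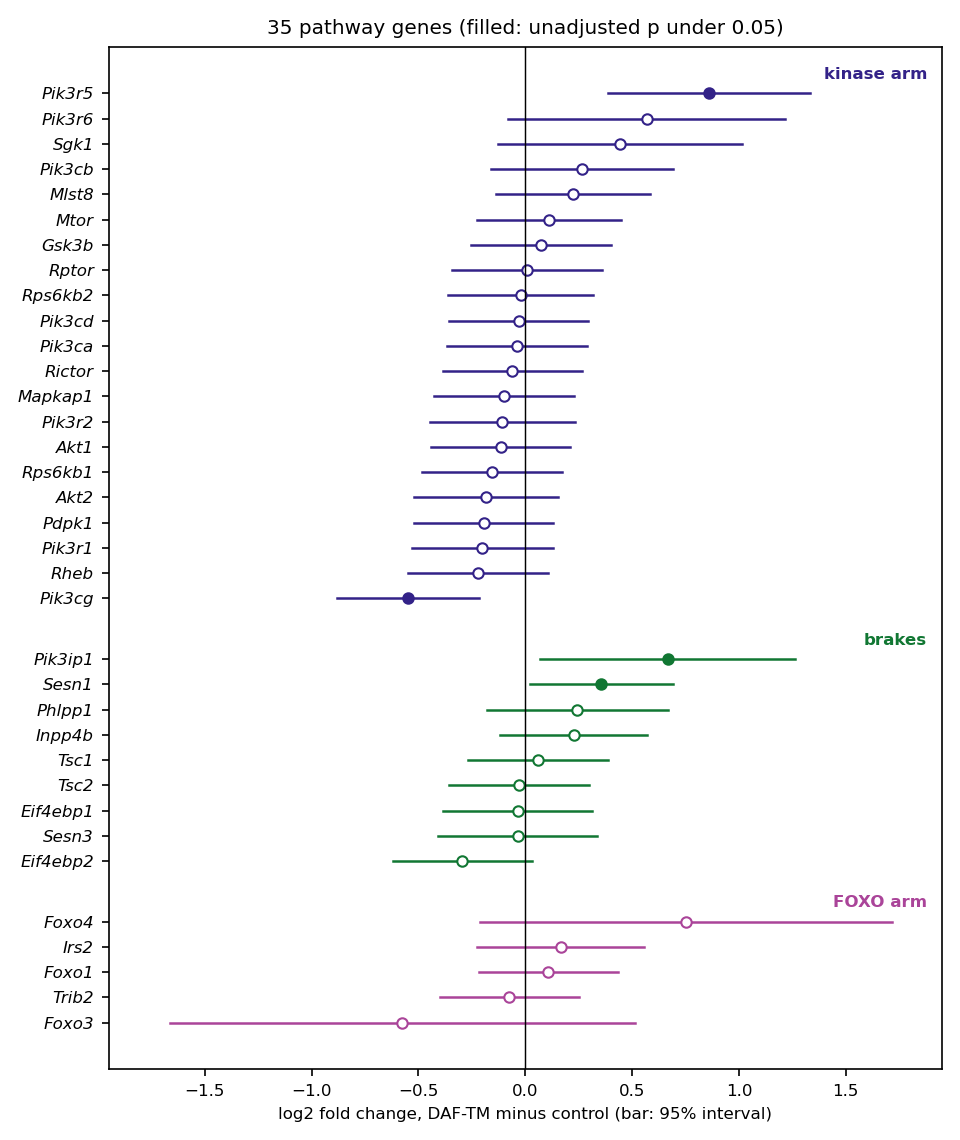
Log2 fold change of each gene, DAF-TM minus control, with its 95% interval from the edgeR fit, grouped by arm. Most intervals span 0, and the 4 filled points (unadjusted p under 0.05) are Pik3r5, Pik3ip1 and Sesn1 above 0 and Pik3cg below it.

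The 3 arms showed no common shift. The median log2 fold change was -0.04 over the 21 genes of the kinase arm (8 positive, 13 negative), 0.06 over the 9 brakes (5 positive, 4 negative) and 0.11 over the 5 FOXO arm genes (3 positive, 2 negative), beside 0.03 over all genes tested. Without DAF-TM library 1 the medians of the kinase and FOXO arms were -0.19 and -0.16, and without DAF-TM library 2 the kinase arm stood at 0.09. DAF-TM library 1 exceeded DAF-TM library 2 in 19 of the 21 kinase arm genes, 4 of the 9 brakes and 4 of the 5 FOXO arm genes. The share over all genes tested was not counted. Against the control mean, 13 members were higher in both DAF-TM libraries, 10 were lower in both and 12 were split. That is 37.1% higher and 28.6% lower in both, against 29.9% and 25.9% of all genes tested.

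The 2 members of lowest p, Pik3r5 and Pik3cg, encode parts of PI3K gamma, and they differed in opposite directions. Pik3cg, which encodes the catalytic p110 gamma, stood at 285, 265 and 233 CPM in control libraries 1 to 3 and at 185 and 172 in DAF-TM libraries 1 and 2. Both DAF-TM libraries lay below all controls. The log2 fold change was -0.55 (SE 0.17, 95% interval -0.88 to -0.22, edgeR adjusted p = 0.186), so the gene did not pass. It was negative in all 14 alternative fits, from -0.62 to -0.44, with an adjusted p of 0.0752 or above.

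Pik3r5 encodes p101, the adaptor through which p110 gamma responds to G protein beta-gamma subunits. It stood at 11.5, 8.73 and 8.99 CPM in control libraries 1 to 3 and at 19.8 and 15.6 in DAF-TM libraries 1 and 2, so both DAF-TM libraries lay above all controls. The raw counts were 109, 103 and 66 against 220 and 185. The log2 fold change was 0.86 (SE 0.24, 95% interval 0.39 to 1.33, edgeR adjusted p = 0.0806), which did not pass, and it was positive in all 14 alternatives, from 0.67 without DAF-TM library 1 to 1.02 without DAF-TM library 2, with an adjusted p of 0.0805 or above.

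Pik3r6 encodes p84, the alternative adaptor of p110 gamma. Its gene is the neighbour of Pik3r5 on the same strand of chromosome 11: Pik3r5 lies at 68432121 to 68497849 and Pik3r6 at 68503019 to 68552698 (GRCm38), while Pik3cg lies on chromosome 12 at 32173473 to 32208659. Pik3r6 stood at 5.08, 4.92 and 6.13 CPM in control libraries 1 to 3 and at 8.19 and 7.69 in DAF-TM libraries 1 and 2. Here too the groups did not overlap, but the log2 fold change of 0.57 (SE 0.33, 95% interval -0.08 to 1.22, edgeR adjusted p = 0.92) did not pass.

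**Figure D3:**
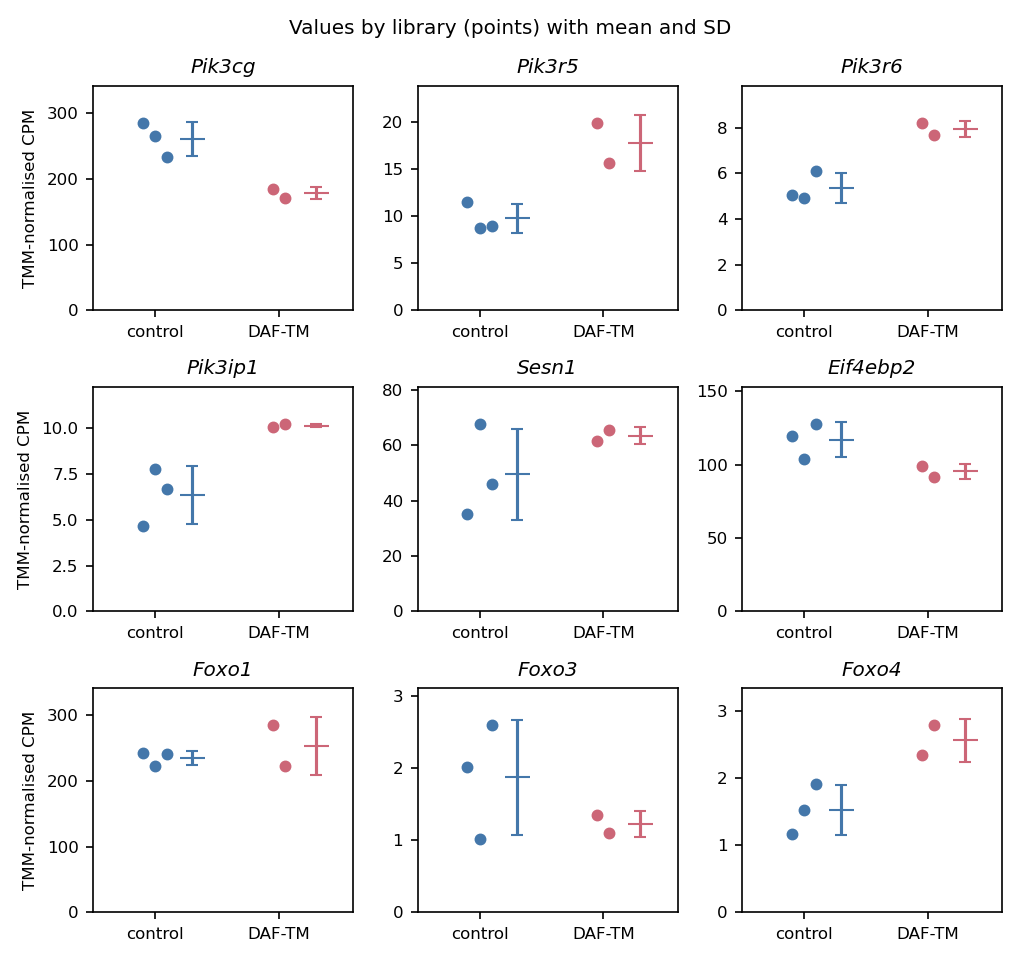
TMM-normalised CPM of 9 genes in each library (points), with the mean and SD of each group (bars), on axes that start at 0. Pik3cg and Eif4ebp2 are lower in both DAF-TM libraries, Pik3r5, Pik3r6, Pik3ip1 and Foxo4 are higher in both, and Sesn1, Foxo1 and Foxo3 overlap between the groups.

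The balance between the parts of PI3K gamma can be read inside each library, without any scaling factor. The pair was chosen after its values were seen, so it is given with no test. Per 100 counts of Pik3cg there were 4.05, 3.29 and 3.86 counts of Pik3r5 in control libraries 1 to 3 and 10.7 and 9.09 in DAF-TM libraries 1 and 2, a 2.65-fold difference of the means on the log scale. For Pik3r6 there were 1.78, 1.86 and 2.63 counts per 100 in the controls against 4.43 and 4.47 in the DAF-TM libraries. Neither ratio could overlap between groups, since Pik3cg lay below and both adaptors above all controls in the DAF-TM libraries. Their lack of overlap thus adds nothing to the values of the single genes. The adaptors of the abundant isoform gave overlapping values: per 100 counts of Pik3cd there were 16.4 to 26.2 counts of Pik3r1 in the controls against 16.0 and 19.95 in the DAF-TM libraries, and 11.7 to 13.8 counts of Pik3r2 against 12.7 and 10.7. Absence of overlap was not particular to the gamma adaptors. Per 100 counts of Pik3cd there were 50.85 to 83.2 counts of Pik3cg in the controls against 42.3 and 50.75, and 3.57 to 4.63 counts of Pik3cb against 4.735 and 5.09. Per 100 counts of Foxo1 there were 0.481 to 0.794 counts of Foxo4 against 0.825 and 1.255.

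**Figure D4:**
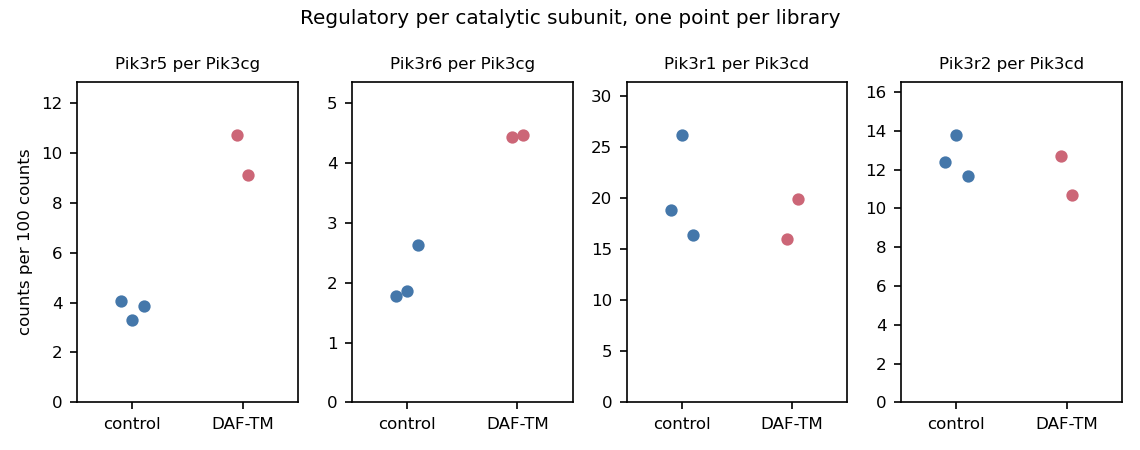
Counts of a regulatory subunit per 100 counts of a catalytic subunit in each library (points), for the gamma isoform (Pik3r5 and Pik3r6 per Pik3cg) and the delta isoform (Pik3r1 and Pik3r2 per Pik3cd). The gamma ratios do not overlap between groups, at most 4.05 against at least 9.09 for Pik3r5, and the delta ratios do. For the gamma ratios this follows from the single genes, which do not overlap and differ in opposite directions.

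The marker list of natural killer cells moved with Pik3r5 (8 of 12 called, sums of 38.1 to 59.0 CPM in controls against 152 and 91.7 in DAF-TM libraries 1 and 2), as did parts of other lists. Of 15 T cell markers 2 were called higher, 10 were higher at an unadjusted p under 0.05 (3.68% of all genes were) and 11 were higher with no overlap (11.3% of all genes). In that list 14 of 15 log2 fold changes were positive, with a median of 0.75. Its summed level was 317 to 337 CPM in controls and 320 and 330 in DAF-TM libraries, but most of that sum was Lck, at 249.1 to 284.6 CPM and at 213 and 223, the 1 gene with a negative value (-0.26, not passing). Of 13 macrophage markers 4 were called higher, 8 were higher with no overlap and 0 lower, and 11 had a positive log2 fold change, with a median of 0.61. Their sum was 88.2 to 141 CPM in controls and 156 and 103 in DAF-TM libraries, with Lyz2, which had a log2 fold change of -0.65 that did not pass, at 45.0 to 95.5 CPM of it in controls. Lck and Lyz2 were named after their values were seen. Of 9 dendritic cell markers 1 was called higher (79.3 to 84.8, then 101 and 90.9 CPM), and of 9 neutrophil markers 0 were (unadjusted p under 0.05 in 2; 81.5 to 258, then 28.5 and 72.8 CPM). No marker of these 5 lists was at 0 in all libraries. Of 7 plasma cell markers 1 was called higher (0.373% of all genes were), and 5 log2 fold changes were positive and 2 negative. Their sum was 1435 to 1705 CPM in controls and 1677 and 1344 in DAF-TM libraries 1 and 2. The part of any of these lists in the differences of PI3K gamma genes was not tested. In bulk RNA more cells of a type cannot be told apart from more RNA per cell.

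The sequences before the start sites of Pik3r5 and Pik3cg are shown because these are the members of lowest p and they differ in composition. Both are from RefSeq (GRCm38.p6), 5′ to 3′ on the gene's strand, and stop before the first annotated exon base. Capitals mark the GC box GGGCGG on either strand, the letters bound by Sp and Krüppel-like factors.
Pik3r5, chr11:68431875-68432120, plus strand: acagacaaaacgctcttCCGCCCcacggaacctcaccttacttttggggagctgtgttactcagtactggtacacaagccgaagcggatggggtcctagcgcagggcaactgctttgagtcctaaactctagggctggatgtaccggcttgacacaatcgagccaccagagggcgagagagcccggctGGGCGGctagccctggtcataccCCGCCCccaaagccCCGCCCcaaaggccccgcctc
Pik3cg, chr12:32208660-32208909, minus strand: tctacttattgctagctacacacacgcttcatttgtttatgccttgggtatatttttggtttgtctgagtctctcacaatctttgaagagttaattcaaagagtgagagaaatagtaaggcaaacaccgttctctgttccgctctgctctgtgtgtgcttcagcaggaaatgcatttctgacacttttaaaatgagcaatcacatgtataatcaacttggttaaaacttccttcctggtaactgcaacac

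The Pik3r5 stretch held 4 GC box matches and 61.4% G and C, and the Pik3cg stretch held 0 and 38.8%. Of 32851 RefSeq promoter windows of 250 bases before a start site, 32.7% held a GC box. So did 26 of the 47 windows found for 31 members, in 22 of these genes. The FOXO motif GTAAACA on either strand was in 3.17% of all windows and in 4 of the 47 member windows, which belong to Akt1, Mapkap1 and Pik3cg. The Mapkap1 windows overlap and hold the same match, so it is counted more than once. In Pik3cg the match lies before a second start site but inside the annotated gene, in a window where 142 of 250 bases are annotated exon. The stretch at chr12:32208544-32208573 on the minus strand is shown with the motif in capitals.
Pik3cg: tttttcctaaaGTAAACAaatgatcctcct
The E box CACGTG, the letters bound by MYC and TFE factors, was in 6.02% of all windows and in windows of Irs2, Rheb and Sgk1. These matches describe letters only.

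The remaining PI3K subunits differed less. Pik3cd stood at 414, 319 and 458 CPM in control libraries 1 to 3 and at 437 and 339 in DAF-TM libraries 1 and 2, so the DAF-TM values fell inside the control range (log2 fold change -0.03, 95% interval -0.36 to 0.30). Its sign turned in 6 of the 14 alternatives. Pik3r1 stood at 78.2, 83.5 and 75.2 CPM and at 69.9 and 67.6, below all controls, with a log2 fold change of -0.20 that did not pass (SE 0.17, edgeR adjusted p = 0.949). Pik3ca, Pik3cb and Pik3r2 had log2 fold changes of -0.04, 0.27 and -0.11, and only Pik3cb of these, at 14.8 to 16.3 against 20.7 and 17.2 CPM, showed no overlap.

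Kinases directly below PI3K showed small differences, and 0 of 5 passed. Akt1, the main AKT gene here, stood at 436, 332 and 520 CPM in control libraries 1 to 3 and at 409 and 384 in the DAF-TM libraries, inside the control range (log2 fold change -0.12, 95% interval -0.44 to 0.21). Pdpk1, which encodes PDK1, the kinase that activates AKT, and Akt2 were lower in both DAF-TM libraries than in any control, by log2 fold changes of -0.19 (SE 0.17) and -0.18 (SE 0.17) that did not pass. Sgk1, a relative of AKT that also acts on FOXO factors, stood at 7.93, 7.46 and 7.36 CPM and at 9.995 and 10.6. Those groups did not overlap, and the log2 fold change of 0.44 (95% interval -0.13 to 1.02, edgeR adjusted p = 0.945) did not pass. Gsk3b, a kinase that AKT inhibits, had a value of 0.07 (SE 0.17).

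For the mTOR complexes and the S6 kinases, 0 of 8 genes passed and all log2 fold changes lay between -0.22 and 0.22. Mtor, the kinase shared by both complexes, stood at 50.2, 36.7 and 54.4 CPM in control libraries 1 to 3 and at 54.9 and 46.5 in the DAF-TM libraries, with a log2 fold change of 0.11 (95% interval -0.23 to 0.45). Rptor, of mTORC1, and Rictor, of mTORC2, had values of 0.01 (SE 0.18) and -0.06 (SE 0.17), and Mapkap1, also of mTORC2, stood at -0.10 (SE 0.17). Mlst8, common to both, had 0.22 (SE 0.18), a value of -0.05 without DAF-TM library 1. Rheb, the small GTPase that switches mTORC1 on, stood at 118 to 156.5 CPM in controls and at 116 and 110 in DAF-TM libraries (log2 fold change -0.22, SE 0.17, not passing). The S6 kinases Rps6kb1 and Rps6kb2, which mTORC1 activates, had -0.16 and -0.02. Exons of Mlst8, Rps6kb1, Rps6kb2, Tsc2 and Irs2 overlap those of genes on the opposite strand, and the counting may have ignored strand, since its setting is not given in the sources used here. Their counts may therefore include reads of those neighbours or lack some of their own, depending on how reads in overlaps were treated.

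Among the brakes, Pik3ip1 and Sesn1 had the highest values. Pik3ip1 encodes a membrane protein that binds and inhibits PI3K. It stood at 4.65, 7.80 and 6.67 CPM in control libraries 1 to 3 and at 10.1 and 10.2 in DAF-TM libraries 1 and 2, above every control. The log2 fold change was 0.67 (SE 0.30, 95% interval 0.07 to 1.26, edgeR adjusted p = 0.809) and did not pass, and it ran from 0.48 without control library 1 to 0.86 with the Xist level as a covariate. The T cell, natural killer cell and macrophage marker values given above stand beside it as well.

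Sesn1 encodes sestrin 1, which restrains mTORC1 when leucine is scarce. It stood at 35.1, 67.6 and 45.9 CPM in control libraries 1 to 3 and at 61.5 and 65.6 in DAF-TM libraries 1 and 2, so control library 2 lay above both DAF-TM libraries. The log2 fold change was 0.36 (SE 0.17, edgeR adjusted p = 0.833). Without control library 2 it was 0.65 and the gene was called (edgeR adjusted p = 0.0143), the only call of a member in any of the 14 alternatives, and without control library 1 it was 0.16. Its relative Sesn3 stood at 25.2 to 27.1 CPM and at 23.1 and 27.9, with a log2 fold change of -0.04 (SE 0.19).

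The other brakes did not pass either. Eif4ebp2, a translation repressor that mTORC1 inactivates, stood at 120, 104 and 127.5 CPM in control libraries 1 to 3 and at 99.2 and 91.6 in the DAF-TM libraries, below all controls (log2 fold change -0.29, SE 0.17, edgeR adjusted p = 0.914). Eif4ebp1, of the same family, had -0.04 (SE 0.18). Tsc1 and Tsc2, the complex that turns Rheb off, had 0.06 and -0.03 with SE of 0.17 each. Inpp4b, a phosphatase of the PI3K lipid pathway, and Phlpp1, a phosphatase of AKT, had 0.23 (SE 0.18) and 0.24 (SE 0.22), and the DAF-TM libraries overlapped the controls in both.

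In the FOXO arm 0 of 5 genes passed, and of the 3 FOXO factors the abundant Foxo1 had the narrowest interval. Foxo1, Trib2 and Irs2 were bounded within 1.5-fold in either direction, and Foxo4 and Foxo3 were not bounded within 2-fold. Foxo1 stood at 242, 223 and 240.3 CPM in control libraries 1 to 3 and at 284 and 222 in DAF-TM libraries 1 and 2, so that DAF-TM library 1 lay above and DAF-TM library 2 just below all controls (log2 fold change 0.11, 95% interval -0.22 to 0.43). Foxo4, an X-linked gene, stood at 1.16, 1.53 and 1.91 CPM and at 2.34 and 2.79, with no overlap and a log2 fold change of 0.75 (SE 0.49, 95% interval -0.21 to 1.72, edgeR adjusted p = 0.945). Foxo3 stood at 2.01, 1.02 and 2.59 CPM and at 1.35 and 1.10 (log2 fold change -0.58, SE 0.56, edgeR adjusted p = 0.949). As few as 11 counts of Foxo4 and 12 of Foxo3 lay behind a library's value.

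Irs2, an adaptor between insulin-type receptors and PI3K that FOXO factors are known to induce, stood at 24.6, 16.4 and 22.2 CPM in control libraries 1 to 3 and at 28.4 and 18.8 in the DAF-TM libraries. The groups overlapped, and the log2 fold change of 0.16 (SE 0.20, edgeR adjusted p = 0.953) turned to -0.17 without DAF-TM library 1. Trib2, a pseudokinase reported to restrain FOXO factors, stood at 144 to 168 CPM in the controls and at 157 and 142 in the DAF-TM libraries, with a log2 fold change of -0.07 (SE 0.17). Together with Pik3ip1, Sesn1 and Sesn3, Irs2 makes 4 members known as FOXO targets. Of these 0 were called, and 2, Pik3ip1 and Sesn1, were higher at an unadjusted p under 0.05, where 3.68% of all genes were. The groups overlapped in Sesn1.

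Genes outside the 35 that FOXO factors are known to regulate did include calls. Of 27 such genes, in a list written with earlier results of these data known, 5 were called higher and 0 lower. Of all genes 0.373% and 0.0373% were. In the list 14 log2 fold changes were positive and 13 negative, with a median of 0.06. The list does not separate genes that FOXO factors induce from genes they repress, so these counts are not a reading of FOXO activity. The genes called higher included Ccr7 (3.46-fold), Klf2 (2.62-fold), S1pr1 (2.37-fold) and Ccnd2 (1.67-fold). Ccr7 encodes a chemokine receptor that draws lymphocytes towards T cell areas, and it stood at 7.51, 7.46 and 8.72 CPM in control libraries 1 to 3 and at 30.8 and 23.6 in DAF-TM libraries 1 and 2 (edgeR adjusted p = 1.48e-11). Both DAF-TM libraries lay above every control for Ccr7. Klf2 encodes a Krüppel-like factor of resting lymphocytes, and its level was 16.1, 23.5 and 16.6 CPM in control libraries 1 to 3 and 63.1 and 35.6 in the DAF-TM libraries (edgeR adjusted p = 4.53e-10). S1pr1, a sphingosine 1-phosphate receptor used by lymphocytes to leave tissue, had 18.1, 29.25 and 24.5 CPM and then 68.6 and 45.4 (edgeR adjusted p = 8.61e-09). For both, DAF-TM library 1 was the highest and no control reached DAF-TM library 2. Ccnd2 encodes cyclin D2 and stood at 27.0, 25.9 and 28.6 CPM and at 56.2 and 34.45 (edgeR adjusted p = 0.0128). Without DAF-TM library 1 the calls of Klf2 (edgeR adjusted p = 0.245), S1pr1 (0.195) and Ccnd2 (0.594) were lost, while Ccr7 kept its call (0.00314). The call of Ccnd2 was also lost with DESeq2 (adjusted p = 0.485), limma-voom (0.153), the replicate block (edgeR, 0.0844) and without control library 1 (0.149) or 3 (0.0613). In these 5 fits its log2 fold change was 0.70 to 0.79, beside 0.74 with all libraries, and without DAF-TM library 1 it was 0.34. Ccr7 is a naive B cell marker too, and of 9 markers of that kind 2 were called higher, with a sum of 1155 to 1433 CPM over the controls against 1509 and 1034 in DAF-TM libraries 1 and 2. Of the T cell, natural killer cell and macrophage markers given above, 14 of 15, 12 of 12 and 11 of 13 had a positive log2 fold change and 2, 8 and 4 were called higher, and their part in the values of this list was not tested.

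At an unadjusted p under 0.05, 8 of the 27 were higher, the 5 called among them, and 3 were lower, where 3.68% and 2.06% of all genes were. The further 6 did not pass and are named after their values were seen. Il7r, the interleukin 7 receptor, stood at 1.48, 4.41 and 4.77 CPM in control libraries 1 to 3 and at 7.47 and 9.04 in the DAF-TM libraries (log2 fold change 1.22, SE 0.35, edgeR adjusted p = 0.102). Tnfsf10, which encodes the death ligand TRAIL, and Fbxo32, a ubiquitin ligase subunit, had 0.87 (edgeR adjusted p = 0.726) and 0.61 (0.829). In these 3 the groups did not overlap. Bcl6, the master regulator of germinal centre B cells, stood at 286, 278 and 312 CPM in control libraries 1 to 3 and at 213.5 and 238 in the DAF-TM libraries (log2 fold change -0.37, SE 0.17, edgeR adjusted p = 0.795). Cxcr4, the chemokine receptor that draws B cells into the dark zone, and Ccng2, which encodes cyclin G2, had -0.34 (edgeR adjusted p = 0.858) and -0.37 (0.816).

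A further 49 genes of the PI3K and mTOR pathway, such as the lysosomal Rag and LAMTOR proteins and the lipid phosphatases, held 0 calls. At an unadjusted p under 0.05, 2 were lower and 0 higher, where 2.06% and 3.68% of all genes were. With no overlap, 11 of the 49 were lower and 4 higher, where 9.02% and 11.3% of all genes were. In both DAF-TM libraries 36.7% were below and 16.3% above the control mean, against 25.9% and 29.9% of all genes tested. Their median log2 fold change was -0.05, with 22 positive and 27 negative. Rraga encodes RagA, a GTPase that brings mTORC1 to the lysosome when amino acids are present. It stood at 132, 193 and 155 CPM in control libraries 1 to 3 and at 102 and 115 in the DAF-TM libraries, below all controls (log2 fold change -0.56, SE 0.17, edgeR adjusted p = 0.162). Pik3c2a, a class II PI3K, stood at 121, 138.5 and 110.5 CPM and at 96.2 and 81.2, also below all controls (log2 fold change -0.475, SE 0.17, edgeR adjusted p = 0.415).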

How the data were processed

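RNA from 6 samples was profiled, 3 per group in the labels. The deposited table holds raw counts for each gene symbol, not normalized by the authors. The submitters' processing notes list bcl2fastq, HISAT2 and featureCounts with no version, and mm10 is the build per the file headers. For the annotation, the strand setting and multi-mapping reads, the choice is not given in the sources used here. A spreadsheet had turned 27 symbols into dates, rows with up to 0.266% of the counts that stayed in the library sizes. The number of columns not matched to a sample was 0.

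Identical columns were counted once. Counts were tested with edgeR 4.0.16 (R 4.3.3, limma 3.58.1): TMM factors, filterByExpr by group, robust glmQLFit and a two-sided glmQLFTest. P-values were adjusted by the Benjamini-Hochberg method over all 18767 genes, with 0.05 as the threshold. Adjusted p-values come from this fit. SE is the log2 fold change divided by the root of the F statistic. With a biological coefficient of variation of 0.177, 3 residual degrees of freedom stood against a median of 1139 prior ones, so p-values rest mainly on the spread pooled over genes. Per-library log2 differences used a pseudocount of 0.5. Lengths and positions came from GENCODE M21 (GRCm38) and promoters from RefSeq, where 31 of the 35 genes were matched. The procedure was tested on simulated data.

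Named with values in every library were members with an unadjusted p under 0.05, the 3 of lowest p in each arm and 5 fixed genes (Pik3cd, Pik3r1, Akt1, Mtor, Foxo1), and in the other pathway lists the genes called and the 2 of lowest p; the values of 1 gene are not reported here. Members, lists and rules were chosen with earlier results of these data known. Alternatives were other scaling factors (RLE, upper quartile, none), other filters (none, or 1 CPM in 3 libraries), other tools (limma-voom and DESeq2 1.42.0), added terms (replicate number as a block, or Xist as a covariate), and the removal of each library in turn.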

Additional observations from a re-analysis of the deposited data

How the results depend on the processing

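Over 14 alternatives the number of members called stayed at 0 higher and 0 lower, except for 1 higher (Sesn1, 0.65) when control library 2 was left out, so that leaving out 1 library gave 0 to 1. The other pathway genes had 0 calls in all 14. FOXO target genes called higher numbered 4 to 6 in the other fits and ranged from 2 to 5 when 1 library was left out, from a value of 5. Genes called in the whole table, 70 higher and 7 lower, were 39 and 0 with upper-quartile factors, 42 and 0 with library size only, 26 and 0 with DESeq2, and 69 and 11 with RLE factors. They were 44 higher with limma-voom, and 11 lower without the low-count filter. Leaving out 1 library gave 12 to 107 higher and 2 to 16 lower, the fewest higher being found with DAF-TM library 1 left out, the most with DAF-TM library 2 left out. Scaling by library size only moved the median log2 fold change of all genes from 0.03 to 0.13, and upper-quartile factors to 0.10. The median of the brakes, 0.06, was 0.13 with upper-quartile factors, 0.16 with library size only and 0.02 with DESeq2. Leaving out 1 library gave 0.024 to 0.145 for the brakes, -0.193 to 0.088 for the kinase arm and -0.155 to 0.273 for the FOXO arm.

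The sign turned for genes near 0. Pik3cd was 0.026 with upper-quartile factors, 0.057 with library size only and 0.084 with the replicate block, and ran from -0.234 to 0.141 with 1 library left out. Akt1 was 0.058 with the replicate block and ran from -0.274 to 0.06 with 1 library left out. In such fits Mtor ran from -0.046 to 0.239, Irs2 from -0.172 to 0.436 and Foxo1 from -0.087 to 0.273. The cause was not tested.

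With the replicate number as a block, 45 genes were called higher and 16 lower, and 0 members. Replicate numbers are not a pairing here, as no label ties a number to a litter or day. Across genes, deviations from the group mean correlated at -0.117 between the libraries numbered 1 and at -0.255 between those numbered 2. With 2 DAF-TM libraries these deviations mirror each other, so each control gives the same value with opposite signs. Control library 1 had -0.117 and 0.117, and control library 2 had 0.255 and -0.255. These correlations therefore cannot test a pairing by number. Leaving out a DAF-TM library leaves 1, which is then assumed to vary like the controls. With 3 and 2 libraries, changes under 2-fold would often be missed among the genes of the whole table.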
